A study of Bos indicus with 9 samples.

Results

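Superovulated corpora lutea were compared with control corpora lutea across all the genes of a bovine expression array. The 6 arrays were taken by the group named in their titles, 3 superovulated and 3 control, out of 9 arrays in the series. Of the probe sets on the array 23983 were tested, and they stand for 9142 genes with a symbol. All animals were Nelore crossbred cows (Bos indicus) between 2 and 5 years old, kept on pasture with a supplement. Progesterone devices and estradiol benzoate were used to synchronise every cow, the controls included. On day 4 of that protocol the superovulated cows were also given equine chorionic gonadotropin (eCG) at 2000 IU, while the controls were labelled as not treated with it. The remaining 3 arrays came from cows labelled stimulated, which received 400 IU on day 8, and they serve here to estimate the spread between animals. All corpora lutea were collected at slaughter on day 6 after ovulation, with 1 array for each biological replicate. How many follicles each cow ovulated, and whether several corpora lutea of a cow were pooled, is not stated in the sources used here.

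The corpus luteum forms from the wall of the follicle after ovulation and secretes progesterone. Its large and small luteal cells take up cholesterol from lipoproteins and convert it to progesterone in the mitochondria and endoplasmic reticulum, under the drive of luteinising hormone. The gland grows within days and is densely supplied with capillaries, whose growth depends on vascular endothelial growth factors, and it also holds fibroblasts, pericytes and macrophages. eCG is a hormone of the pregnant mare that binds the receptors of both follicle-stimulating and luteinising hormone in cattle, and high doses are given to make several follicles ovulate at once. The comparison asks how the gland that formed after such a treatment differed in its RNA from that of synchronised cows without it.

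No gene passed the test in either direction. In limma, 0 of 23983 probe sets (0% called) had an adjusted p under 0.05, and the smallest adjusted p was 0.487. At an unadjusted p under 0.05, 624 probe sets (2.6%) had higher and 863 (3.6%) lower signal in superovulated animals. Among the 9142 genes the same count was 286 higher (3.13%) and 196 lower (2.14%). Groups that did not overlap, with all superovulated animals on 1 side of all controls, were found for 504 genes with higher signal (5.51%) and 373 with lower signal (4.08%). The median log2 fold change of all genes was 0.01, and 53.3% of genes had a value above 0. A log2 fold change over 1 was found for 100 genes and below -1 for 34, which together are 1.47% of genes. The plot of fold change against signal shows this spread around 0. With 3 animals a group, the standard error (SE) of a gene's log2 fold change had a median of 0.14. All genes named from here on are therefore described by their values, and none of them passed.

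**Figure D1:**
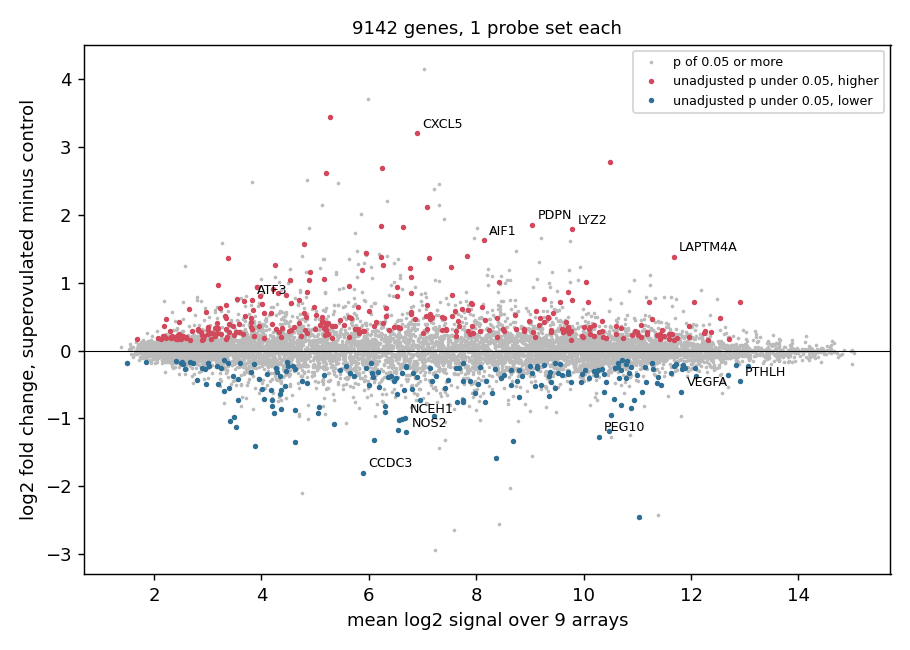
Log2 fold change of superovulated over control corpora lutea (vertical axis) against the mean log2 signal over 9 arrays (horizontal axis) for 9142 genes, 1 point each. The 286 genes in red and 196 in blue had an unadjusted limma p under 0.05 and none had an adjusted p under 0.05. Named points are genes described in the text.

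The balance of directions depended on which probe sets were counted. Among the 13268 probe sets with 1 gene symbol, 416 had higher signal (3.14%) and 324 lower signal (2.44%) at an unadjusted limma p under 0.05 in superovulated animals. Among the 10715 without a single symbol, 208 had higher (1.94%) and 539 lower signal (5.03%). Groups that did not overlap showed the same split, with 5.89% higher and 4.45% lower among probe sets with a symbol and 4.3% higher and 7.24% lower among the others. The share of log2 fold changes above 0 was 53.2% with and 47.8% without a symbol. What these probe sets without a symbol measure was not tested.

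Several facts of the arrays stand beside every result. Signal at the 3' end of a transcript relative to its 5' end, a measure that moves with RNA quality, was read from the array's control probe sets for 6 cattle transcripts. It was higher in superovulated than in control animals by 0.105 for cyclophilin, 0.153 for eIF-4E and 0.344 for glutathione S-transferase on the log2 scale, without overlap (exact permutation p = 0.1 for each, the smallest that 3 against 3 animals allow). For elongation factor 1 alpha and GAPDH it was higher by 0.13 and 0.043 (exact permutation p = 0.2 for each), and for actin it was -0.065 (exact permutation p = 0.7). The part of these differences in the gene results was not tested. Superovulated 2 had the highest mean signal of the 6 animals for fibroblast, macrophage and epithelial genes. Control 2 and stimulated 2 were the highest of their groups for fibroblast and macrophage genes too. Superovulated 3 had the lowest mean for cell cycle genes, and control 2 the highest. In whole tissue, fewer cells of a type and less RNA per cell cannot be told apart.

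The luteal identity of the samples was plain in all 6 animals. STAR, which delivers cholesterol to the inner mitochondrial membrane, had log2 signals of 14.84, 14.63 and 14.80 in control and 14.81, 14.55 and 14.65 in superovulated animals. CYP11A1, which cleaves the cholesterol side chain, had 14.29, 14.10 and 14.10 in control against 14.05, 13.92 and 14.25. These ranges overlapped, and the log2 fold changes were -0.09 (SE 0.09) for STAR and -0.09 (SE 0.11) for CYP11A1. With 1 array left out they ran from -0.157 without superovulated 1 to -0.028 without superovulated 2 for STAR, and from -0.178 without superovulated 3 to -0.011 without superovulated 2 for CYP11A1. HSD3B1, which makes progesterone from pregnenolone, had 14.57, 14.46 and 14.44 in control and 14.34, 14.21 and 14.39 in superovulated animals. Its groups did not overlap, but the difference was small, with a log2 fold change of -0.17 (SE 0.08, limma adjusted p = 0.807). Signals of this height lie at the top of the array, above those of 99.6% of probe sets for CYP11A1.

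The progesterone synthesis list of enzymes, carriers and transcription factors had 15 measured genes with a median log2 fold change of -0.06, or -0.25 over the 4 genes with no digit run open to 2 readings. Of the 15 genes 4 had values above 0 and 11 below. At an unadjusted p under 0.05, 1 had higher and 0 had lower signal, against 3.13% and 2.14% of all genes. That gene was POR, the reductase that passes electrons to steroid-making cytochromes of the endoplasmic reticulum. It had 9.61, 9.44 and 9.64 in control against 9.90, 9.73 and 10.10 in superovulated animals, with no overlap and a log2 fold change of 0.35 (SE 0.14). GATA4, a transcription factor of steroid-producing cells, had -0.36 (SE 0.18), and -0.15 without control 3. HSD11B2, which inactivates glucocorticoids, belongs to another list, that of steroid hormone receptors and cofactors. It had -0.79 (SE 0.39), and -0.42 without superovulated 1. The 15 measured genes of that list had a median of -0.05, with 0 in either direction at an unadjusted p under 0.05.

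Luteal cells store cholesterol as esters and free it by hydrolysis. NCEH1, a hydrolase of cholesterol esters, had 6.92, 7.58 and 7.26 in the controls and 6.07, 6.43 and 6.26 in the superovulated animals. All superovulated values lay below all controls, with a log2 fold change of -1.002 (SE 0.17, limma adjusted p = 0.563), and another probe set of NCEH1 had -3.25. The stimulated cows had a mean of 6.50 for NCEH1, close to the superovulated values. SCARB1, the receptor for high-density lipoprotein, had a log2 fold change of -0.03 (SE 0.10), whose sign turned without control 3 or superovulated 2. APOE, which carries cholesterol between cells, had -0.46 (SE 0.22), and -0.24 without control 1. Among the 19 measured genes of lipoprotein uptake and cholesterol ester handling, 0 were higher and 1 was lower at an unadjusted p under 0.05. Over all genes these shares were 3.13% higher and 2.14% lower. The median of the list was 0.03, with a sign that turned under 5 alternatives. The 19 cholesterol synthesis genes had 0 in either direction and a median of 0.03, which ran from -0.06 without superovulated 1 to 0.14 without superovulated 2.

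LHCGR and PTGFR, receptors that couple the gland to the pituitary and uterus, had overlapping groups. LHCGR, the receptor of luteinising hormone and of eCG, had 7.07, 5.44 and 5.88 in control and 6.55, 6.62 and 6.52 in superovulated animals. The superovulated values were close together and lay inside the control range, with a log2 fold change of 0.43 (SE 0.37) that was 0.09 without control 2 and 0.90 without control 1. PTGFR, the receptor through which prostaglandin F2 alpha ends luteal function, had 13.90, 13.88 and 13.90 in control against 13.72, 13.49 and 13.98, with overlapping groups and a log2 fold change of -0.17 (SE 0.12). Without superovulated 2 it was -0.05 and without superovulated 3 it was -0.29, and the other probe sets of PTGFR had -0.26 and -0.54. PGR, the progesterone receptor, had its signal in the dim range of the array, between 2.27 and 2.38 in the 6 animals, and the comparison says nothing of it. INSR, the insulin receptor, was the gene of the receptor and cAMP list with the smallest p. It had 4.73, 4.49 and 3.66 in control against 3.72, 2.63 and 2.29 in superovulated animals, which overlapped, and a log2 fold change of -1.41 (SE 0.55), while all probe sets of INSR averaged -0.45. Among the 18 measured genes in that list 0 were higher and 1 was lower at an unadjusted p under 0.05. Over all genes these shares were 3.13% higher and 2.14% lower.

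Members of the VEGF family had values of both signs, and those with an unadjusted p under 0.05 had lower signal. VEGFA, the main growth factor of luteal capillaries, had 11.84, 12.33 and 12.09 in control and 11.68, 11.44 and 11.33 in superovulated animals. The groups did not overlap, and the log2 fold change was -0.61 (SE 0.13, limma adjusted p = 0.640). Another probe set of VEGFA, which was dimmer, had -0.02. FLT1, a receptor of VEGFA on endothelial cells, had 9.34, 9.70 and 8.88 in control against 8.95, 8.77 and 8.66. Control 3 lay within the superovulated range of FLT1, and the log2 fold change was -0.51 (SE 0.20), or -0.32 without control 2 and -0.18 as the mean of its probe sets. VEGFC, which acts on lymphatic and blood vessels and was named after its values were seen, had 11.49, 11.69 and 11.64 in control against 10.67, 11.49 and 11.21. The groups of VEGFC were just apart, with a log2 fold change of -0.49 (SE 0.19), and -0.26 without superovulated 1. KDR, the other main receptor of VEGFA, had a probe set in the dim range, between 2.28 and 2.48, and its sign turned without control 1 or superovulated 1. The ligands PGF, VEGFB and VEGFD had 0.65 (SE 0.50), 0.15 (SE 0.23) and 0.04 (SE 0.07), and the coreceptor NRP1 had 0.08 (SE 0.21).

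NOS2, the inducible nitric oxide synthase, had 8.05, 8.39 and 6.59 in control animals and 6.49, 6.49 and 6.44 in superovulated ones. Control 3 stood just above the superovulated animals and the other controls well above. The log2 fold change was -1.21 (SE 0.44), with -0.39 for the mean of its probe sets, and the stimulated cows had a mean of 5.94. FGF1, a growth factor for endothelial and other cells, was the 1 gene of its list with higher signal at an unadjusted p under 0.05. It had 12.90, 12.47 and 13.03 in control against 13.26, 13.24 and 14.04, a log2 fold change of 0.71 (SE 0.25), which was 0.45 without superovulated 3. The other 10 probe sets of FGF1 ran from -0.25 to 0.22, and their mean with it was 0.05. Among the 35 measured genes of the VEGF, FGF and angiopoietin list, 1 was higher and 4 were lower at an unadjusted p under 0.05, against 3.13% and 2.14% of all genes, and the median of 0.05 was above 0. The 18 measured endothelial markers had a median of 0.20 with 14 values above 0, and a median of 0.07 without control 3 and 0.32 without control 2. ROBO4, a receptor of endothelial cells, had 0.66 (SE 0.38), with 0.42 without control 3 or superovulated 2 and 1.08 without control 2.

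Among the peptide hormones of the gland, PTHLH and INSL3 had lower means in superovulated animals, with groups apart for PTHLH only. PTHLH, the parathyroid hormone-like peptide, had 13.03, 13.11 and 13.08 in control and 12.72, 12.61 and 12.55 in superovulated animals. The animals of each group lay close together, and the log2 fold change was -0.45 (SE 0.08, limma adjusted p = 0.563). With each gene represented by its probe set of highest mean, PTHLH had the smallest p among genes with lower signal. The 3 stimulated cows had 12.92, 13.12 and 13.02, within or near the control range. INSL3, a relaxin-like peptide of theca and luteal cells, had 12.68, 10.33 and 13.56 in control against 9.98, 10.91 and 8.38 in superovulated animals. Control 2 fell inside the superovulated range of INSL3, so that a log2 fold change of -2.43 had an SE of 1.09. OXT, the luteal form of the neurohypophysial hormone, had signals from 13.30 to 13.88 over the 6 animals and a log2 fold change of -0.06 (SE 0.14), whose sign turned without superovulated 1. CPE, which trims peptide hormones from their precursors, had 0.68 (SE 0.40). Of the 19 measured genes in this list 0 were higher and 1 was lower at an unadjusted p under 0.05, and 9 values lay above 0. Over all genes the shares at that p were 3.13% higher and 2.14% lower.

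**Figure D2:**
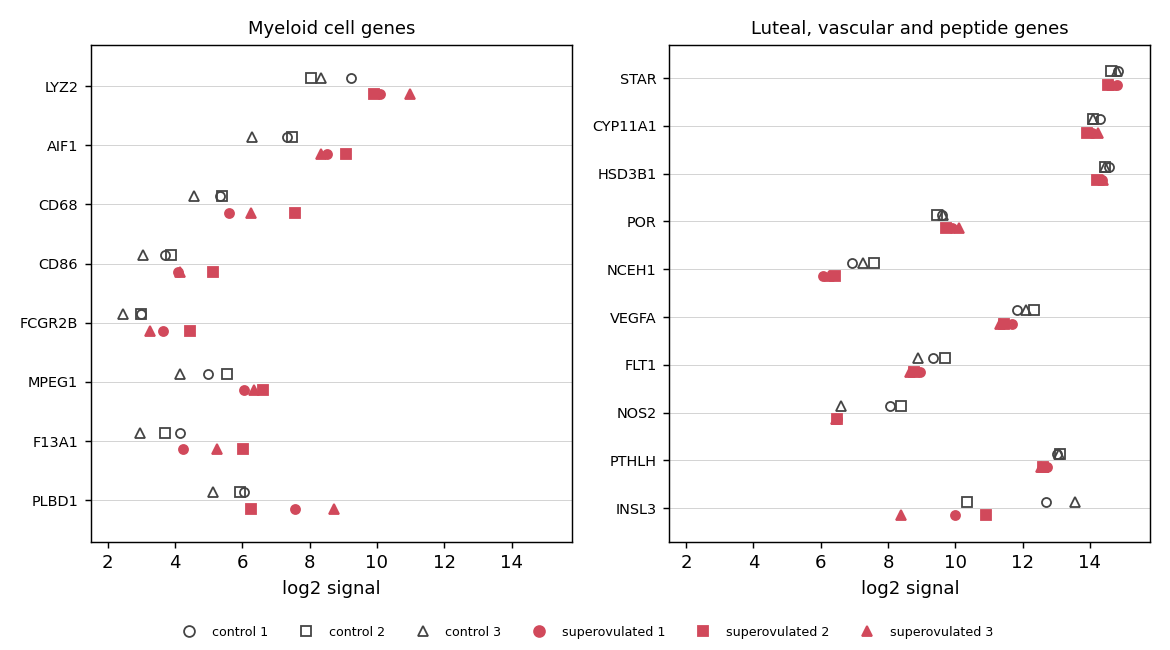
Log2 signal (horizontal axis) of myeloid cell genes (left) and of luteal, vascular and peptide genes (right) in 3 control animals (open symbols) and 3 superovulated animals (filled symbols), 1 symbol per animal. STAR and CYP11A1 overlap between groups at the top of the scale, VEGFA and PTHLH do not overlap, and AIF1 runs from 8.34 to 9.09 in superovulated against 6.28 to 7.46 in control animals.

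In the activin, inhibin, BMP and TGF-beta list, 1 of 27 measured genes was higher and 1 was lower at an unadjusted p under 0.05. Over all genes the shares at that p were 3.13% higher and 2.14% lower. SMAD2, which carries activin and TGF-beta signals to the nucleus, had 0.28 (SE 0.11), and ID2, a target of BMP signals, had -0.23 (SE 0.09). FST, whose product binds activin, had 7.99, 5.88 and 8.17 in control and 6.79, 9.64 and 9.18 in superovulated animals. The groups overlapped, and the log2 fold change of 1.19 (SE 0.83) was 0.46 without control 2, 0.64 without superovulated 2 and 2.06 without superovulated 1. INHBA, a subunit of activin, had 0.06 (SE 0.29), with a sign that turned without control 3 or superovulated 2. TGFB2 had 0.79 (SE 0.42), and 0.43 without superovulated 2. In the insulin-like growth factor list, IGFBP5, a binding protein, had 2.99, 3.21 and 3.09 in control against 3.30, 3.88 and 3.65. Its groups did not overlap, and the log2 fold change was 0.51 (SE 0.14) at signals in the dim part of the array. INSR, described above, was the 1 gene of those 14 with lower signal at an unadjusted p under 0.05, while 9 of the 14 values lay above 0.

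With each gene represented by its probe set of highest mean, genes of the stress response included the smallest p of all genes. ATF3, a transcription factor induced by many stresses, had 3.52, 3.53 and 3.57 in control and 4.52, 4.18 and 4.17 in superovulated animals. All superovulated values were higher and the controls nearly identical, for a log2 fold change of 0.75 (SE 0.11, limma adjusted p = 0.493). The 3 stimulated cows had 3.68, 3.49 and 3.72 for ATF3. CEBPD, a transcription factor of acute inflammation, had 11.92, 11.13 and 11.74 in control against 12.40, 12.38 and 12.16, without overlap. Its log2 fold change was 0.72 (SE 0.19), and its other probe sets had 1.91 and 0.40. JUND, a subunit of AP-1, had 0.16 (SE 0.06), with 0.09 as the mean over all probe sets of the gene. Of the 27 measured immediate early and stress genes 3 were higher and 0 were lower at an unadjusted p under 0.05, against 3.13% and 2.14% of all genes. Values above 0 were found for 21 of them, against 53.3% of all genes. The median of 0.17 rested on 1 animal, since it was -0.0038 without superovulated 2.

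GADD45B, a growth arrest gene of that list, went the other way with -0.37 (SE 0.16). HMOX1, which degrades heme and belongs to the antioxidant enzymes, had 1.11 (SE 0.52) with 10.10, 11.56 and 10.26 in control against 11.50, 12.38 and 11.38, so that control 2 lay among the superovulated animals. The 28 measured antioxidant enzymes had 0 in either direction at an unadjusted p under 0.05. So had the 26 heat shock and folding genes and the 19 apoptosis genes. Over all genes these shares were 3.13% higher and 2.14% lower, so that 0 lies near them in lists of this size.

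The other genes with higher signal and the smallest p belonged to no single list. CCNC, which encodes cyclin C of the transcription mediator, had 9.23, 9.05 and 9.11 in control and 9.66, 9.50 and 9.49 in superovulated animals. CFL2, an actin-severing cofilin, had 8.99, 8.99 and 9.06 against 9.62, 9.36 and 9.49. In both genes the animals of a group lay close together and the groups were apart, with log2 fold changes of 0.42 (SE 0.07) for CCNC and 0.48 (SE 0.09) for CFL2. LAPTM4A, a lysosomal membrane protein, had 11.27, 11.23 and 10.73 in control against 11.90, 12.82 and 12.67, and a log2 fold change of 1.38 (SE 0.29). MAN2B1, the lysosomal alpha-mannosidase, had 6.34, 5.93 and 6.32 against 8.04, 7.09 and 7.55, with 1.36 (SE 0.29). ACADL, which oxidises long-chain fatty acids in mitochondria, had 0.95 (SE 0.20), and SLC25A51, which carries NAD into mitochondria, had 0.53 (SE 0.11). CERT1, which moves ceramide to the Golgi, had 0.42 (SE 0.08).

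The remaining genes of that kind were DOK2, a signalling adaptor of blood cells, at 0.56 (SE 0.09), TUFT1 at 0.69 (SE 0.12), RPS6KL1 at 0.56 (SE 0.11), EFCC1 at 0.52 (SE 0.11), TNP2 at 0.40 (SE 0.09) and METAP1, which removes the first methionine of proteins, at 0.38 (SE 0.08). All 15 genes of smallest p in this direction had the 3 superovulated animals above the 3 controls, which a choice by smallest p favours. Over all genes 5.51% had groups apart with higher signal. The limma adjusted p values of the 15 genes ran from 0.493 to 0.640. For DOK2 and RPS6KL1 the mean of all probe sets gave 0.20 and 0.31. ATF3, TUFT1, DOK2, EFCC1 and TNP2 had signals below 5 in all 6 animals, close to or below 4.23, the median of all probe sets.

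**Figure D3:**
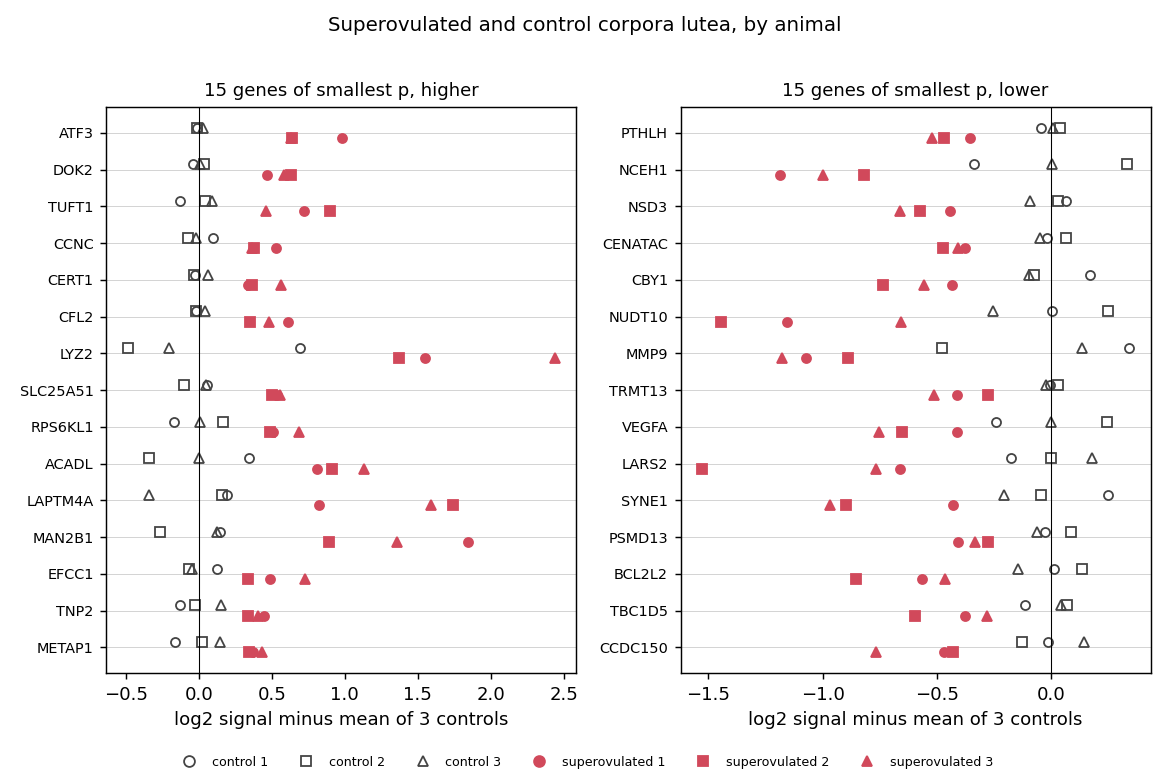
Log2 signal minus the mean of 3 controls (horizontal axis) for the 15 genes of smallest p with higher signal (left) and the 15 with lower signal (right) in superovulated animals. Open symbols are controls and filled symbols superovulated animals, 1 per animal. In each gene shown the groups are apart, which the choice by smallest p favours, and none passed the test.

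Genes of macrophages and other myeloid cells had the highest median of the 34 lists. Of 27 measured genes 24 had values above 0, 6 were higher and 0 were lower at an unadjusted p under 0.05, and 6 had groups apart, all with higher signal. These shares of 22.2% compare with 3.13% and 5.51% of all genes. The median log2 fold change was 0.55, with 0.29 without superovulated 2 and 0.76 without control 2. The mean signal of the list was 6.18, 6.35 and 5.52 in control and 6.47, 7.31 and 6.42 in superovulated animals. The groups did not overlap in this mean, but superovulated 1 and 3 exceeded control 2 by little. The stimulated cows had a list mean of 7.10, above the superovulated mean of 6.73.

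LYZ2, a lysozyme, had 9.23, 8.05 and 8.34 in control and 10.09, 9.91 and 10.98 in superovulated animals, and a log2 fold change of 1.79 (SE 0.36, limma adjusted p = 0.640). Its other 3 probe sets, all dim, ran from -0.06 to 0.13. AIF1, a calcium-binding protein of macrophages, had 7.33, 7.46 and 6.28 in control against 8.52, 9.09 and 8.34. Every superovulated animal was above every control for both genes, and AIF1 had a log2 fold change of 1.63 (SE 0.36). FCGR2B, an immunoglobulin receptor, had 2.99, 2.98 and 2.45 against 3.64, 4.44 and 3.26, with 0.97 (SE 0.35), or 0.64 without superovulated 2. CD86, which costimulates T cells, had 3.70, 3.89 and 3.05 against 4.09, 5.12 and 4.15, with 0.91 (SE 0.38), or 0.58 without superovulated 2. CD68, a lysosomal protein of macrophages named after its values were seen, had 5.32, 5.38 and 4.57 against 5.59, 7.56 and 6.27, with 1.38 (SE 0.59), or 0.84 without superovulated 2. For FCGR2B, CD86 and CD68 alike superovulated 2 was the highest and control 3 the lowest.

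Further genes with large differences included several known from macrophages. All of these but CXCL5 were chosen among genes with groups apart, so their separation follows from the choice. CXCL5 was taken from the chemokine list. MPEG1, a pore-forming protein of macrophages, had 4.99, 5.54 and 4.15 in control and 6.05, 6.62 and 6.34 in superovulated animals, a log2 fold change of 1.45 (SE 0.47). F13A1, a clotting factor subunit made by macrophages, had 1.57 (SE 0.57), with 0.91 for the mean of its probe sets, and PLBD1, a phospholipase of granulocytes and monocytes, had 1.82 (SE 0.56). CD44, the hyaluronan receptor, had 5.37, 7.01 and 5.72 against 7.66, 9.37 and 7.43, with 2.12 (SE 0.81). CXCL5, which attracts neutrophils, had 3.82, 6.80 and 4.54 against 8.53, 10.26 and 5.99, with 3.21 (SE 1.16) and control 2 within the superovulated range. PDPN, a membrane glycoprotein of lymphatic endothelium and stroma, had 8.45, 8.34 and 8.81 against 10.89, 10.54 and 9.72. Its groups were well apart, with 1.86 (SE 0.45), and the stimulated mean was 8.20. CLCA3, named for a chloride channel accessory protein, had 1.84 (SE 0.43), while the mean of its 7 probe sets was 0.64.

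Among 32 measured chemokines and cytokines 4 were higher and 1 was lower at an unadjusted p under 0.05, against 3.13% and 2.14% of all genes. The median was 0.14, or 0.51 over the 11 brighter genes. MIF, a cytokine of macrophages and many other cells, had 5.13, 1.54 and 4.97 in control against 6.33, 6.83 and 6.36 in superovulated animals. Control 2 stood far below, at a value whose decimal mark could be read in more than 1 way, and the log2 fold change of 2.62 (SE 0.94) was 1.45 without it. CCL14 had 0.71 (SE 0.28), or 1.09 without control 2, and CCL3 had -0.17 (SE 0.07). In the MHC class II and antigen presentation list, 13 of 16 genes had values above 0, 1 was higher at an unadjusted p under 0.05, and the median of 0.17 was 0.04 without control 3. That gene was TAPBP, which loads peptides onto class I molecules, at 0.21 (SE 0.08). BOLA-DQA2, a class II chain whose probe sets may share signal with related chains, had 8.33, 5.10 and 7.27 against 9.23, 9.14 and 9.50, with 2.39 (SE 1.57), or 1.49 without control 2.

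Interferon-stimulated genes had a median of 0.13 over 29 genes, with 24 values above 0 (82.8% of the list, against 53.3% of all genes). At an unadjusted p under 0.05, 1 was higher, or 3.45% of the list against 3.13% of all genes. The median was 0.0093 without control 3 and 0.40 without control 2. The gene with the small p was UBA7, the activating enzyme of the modifier ISG15, at 0.45 (SE 0.19), or 0.30 without control 3. STAT2, which carries the interferon signal to the nucleus, had 0.60 (SE 0.29), or 0.40 without superovulated 3. Most lymphocyte and neutrophil markers lay at low signals, with exceptions such as IGHM, the immunoglobulin heavy chain of IgM, at a control mean of 10.55. Of the 8 measured B and plasma cell genes 6 were dim, 0 had an unadjusted p under 0.05, and the median was -0.05, or 0.05 without superovulated 3. Of the 22 T and NK cell genes 20 were below the median signal of all probe sets, the median was 0.02 and the 1 with an unadjusted p under 0.05 was CD5 at 0.22 (SE 0.05) with signals from 2.23 to 2.51. NKG7, a protein of killer cell granules, had 0.36 (SE 0.18), or 0.19 without superovulated 2. The 11 neutrophil genes had a median of 0.06, whose sign turned under 4 alternatives, and 8 of them were dim. All 8 measured genes of red blood cells were dim, with list means from 2.51 to 2.78 in the 6 animals.

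Genes with lower signal and the smallest p were also scattered over functions. NSD3, a histone methyltransferase, had 6.98, 6.95 and 6.82 in control and 6.47, 6.34 and 6.25 in superovulated animals, with a log2 fold change of -0.56 (SE 0.10, limma adjusted p = 0.563). Its other 4 probe sets ran from -0.40 to 0.63, and the mean of all was -0.05. SYNE1, which links the nucleus to the cytoskeleton, had 8.78, 8.48 and 8.32 against 8.10, 7.63 and 7.56, with -0.77 (SE 0.17), and BCL2L2, a survival protein, had 8.59, 8.72 and 8.44 against 8.02, 7.73 and 8.12, with -0.63 (SE 0.14). In all of these the groups were apart, which the choice by smallest p favours. CBY1, an antagonist of beta-catenin, had -0.58 (SE 0.11), NUDT10 -1.09 (SE 0.21), LARS2, the mitochondrial leucyl-tRNA synthetase, -0.99 (SE 0.22), CENATAC -0.42 (SE 0.08), TRMT13 -0.40 (SE 0.09), PSMD13, a proteasome subunit, -0.34 (SE 0.08), TBC1D5 -0.42 (SE 0.10) and CCDC150 -0.55 (SE 0.13). For SYNE1 and CENATAC the mean of all probe sets was -0.32 and -0.20. LARS2, CENATAC, TBC1D5 and CCDC150 were dim, with signals below 4.23, the median of all probe sets, in every control and superovulated animal.

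Other genes with lower signal were chosen for larger differences among those with groups apart. PEG10, an imprinted gene derived from a retrotransposon, had 11.41, 10.94 and 9.68 in control and 9.38, 9.33 and 9.52 in superovulated animals. The superovulated animals lay together just below control 3, and the log2 fold change was -1.27 (SE 0.39). ABLIM1, an actin-binding protein, had 11.22, 10.61 and 10.39 against 9.21, 9.14 and 10.31, with -1.18 (SE 0.38), and another probe set of it had -1.93. CCDC3, a secreted protein, had 7.81, 6.42 and 6.28 against 6.17, 4.04 and 4.90, with -1.80 (SE 0.59), or -0.84 as the mean over its probe sets. PLEKHB1 had -1.33 (SE 0.40), CBR3, a carbonyl reductase, -1.31 (SE 0.54), LEF1, a transcription factor of the Wnt pathway, -1.03 (SE 0.29) and RNF181 -1.003 (SE 0.35). CBR3 had -0.65 without superovulated 3, and RNF181 had -0.63 without control 3. The groups of both were only just apart. CBR3 had 6.69 in control 1 and 6.66 in superovulated 1, and RNF181 had 6.118 in control 2 and 6.112 in superovulated 2.

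Markers of the follicle wall had values of both signs. RASD1, a small G protein induced by glucocorticoids, had 6.27, 5.21 and 4.77 in control against 4.44, 3.49 and 4.29, a log2 fold change of -1.34 (SE 0.47) with groups apart. GJA1, a gap junction protein, had 0.22 (SE 0.11), also with groups apart but with higher signal. INSL3, whose groups overlapped, and RASD1 had the lowest log2 fold changes of the 14 granulosa and theca genes, whose mean signal was 6.70, 6.44 and 6.71 in control and 6.38, 6.37 and 6.22 in superovulated animals. The median of the list was -0.04, and 6 of the genes had values above 0.

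Metalloproteinases and their inhibitors included values of both signs. MMP9, a gelatinase of leukocytes, had 4.58, 3.76 and 4.37 in control against 3.17, 3.35 and 3.06 in superovulated animals, with no overlap. The log2 fold change of MMP9 was -1.05 (SE 0.21), at a mean signal of 3.41, below the median of all probe sets. MMP14, a membrane-bound collagenase, had 0.20 (SE 0.07) at dim signals, and TIMP3, an inhibitor of metalloproteinases that also binds to the matrix, had 0.71 (SE 0.29), with 0.44 without control 1 and 0.47 without superovulated 3. Of 18 measured metalloproteinases and inhibitors 2 were higher and 1 was lower at an unadjusted p under 0.05. Over all genes these shares were 3.13% higher and 2.14% lower. The median of the list was 0.13, or -0.05 without superovulated 2. FBLN1, a matrix glycoprotein of stromal cells, had 11.54, 11.30 and 11.63 against 10.76, 10.77 and 11.11, with -0.61 (SE 0.14), or -0.39 as the mean of both probe sets. In contrast S100A4, a calcium-binding protein of motile fibroblasts and leukocytes, had 7.27, 7.40 and 6.67 against 8.49, 9.71 and 7.35, with 1.40 (SE 0.55), or 0.80 without superovulated 2. COL1A1, the main fibrillar collagen chain, had 12.94 in superovulated 2 and 11.60 to 11.98 in the other 5 animals, and its log2 fold change of 0.59 (SE 0.37) was 0.25 without that animal. The fibroblast list had a median of 0.14 over 13 genes, which was -0.10 without superovulated 2, and the 26 collagen and matrix genes had 0.13, or 0.02 without that animal.

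Cell cycle genes had the lowest median of all lists and the widest spread between animals. Of 53 measured genes 48 had values below 0, and 9.43% lay above 0 against 53.3% of all genes. Yet 0 were higher or lower at an unadjusted p under 0.05, against 3.13% and 2.14% of all genes. Groups were apart for 0, against 5.51% of all genes with higher and 4.08% with lower signal. The list mean was 6.79, 8.06 and 7.12 in control and 7.32, 7.88 and 5.79 in superovulated animals, so that the highest animal was a control and the lowest a superovulated cow. The other superovulated animals lay above the other controls. The median of -0.26 was 0.25 without superovulated 3 and -0.68 without superovulated 2, and its sign also turned without control 2. MAD2L1, a spindle checkpoint protein, had 9.68, 10.37 and 10.08 against 9.19, 10.27 and 7.94, and MCM4, a subunit of the replication helicase, had 7.74, 9.42 and 7.96 against 8.06, 8.35 and 6.26. Their log2 fold changes of -0.91 (SE 0.61) and -0.82 (SE 0.61) were -0.31 and -0.17 without superovulated 3.

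Oxidative phosphorylation genes had small log2 fold changes, mostly below 0. Of 74 measured oxidative phosphorylation genes 68 had values below 0, with a median of -0.07, or -0.02 without superovulated 2. Values above 0 made up 8.11% of the list, against 53.3% of all genes. None had an unadjusted p under 0.05, against 3.13% of all genes higher and 2.14% lower. In 2 the groups were apart with lower signal, or 2.7% of the list against 4.08% of all genes. UQCRC2 and UQCRH, subunits of respiratory complex III, had -0.20 (SE 0.11), or -0.11 without superovulated 2, and -0.15 (SE 0.08). The list mean was 12.74, 12.58 and 12.77 in control and 12.63, 12.49 and 12.75 in superovulated animals, which overlapped.

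Genes of glycolysis and the hypoxia response had 25 of 32 values above 0, against 53.3% of all genes, and a median of 0.08. At an unadjusted p under 0.05 there were 0, against 3.13% of all genes higher and 2.14% lower. Groups were apart for 6 with higher and 1 with lower signal, against 5.51% and 4.08% of all genes. Over the 11 genes of the list with no digit run open to 2 readings the median was 0.28. NDRG1, a hypoxia-induced gene, had 7.93, 8.06 and 8.42 in control against 8.55, 10.003 and 8.86, with 1.003 (SE 0.44), or 0.57 without superovulated 2. PKM, the last kinase of glycolysis, had 8.08, 8.01 and 8.19 against 8.42, 8.90 and 8.40, with 0.48 (SE 0.22), or 0.32 without superovulated 2. PFKL, the liver form of phosphofructokinase, had 0.41 (SE 0.19), or 0.25 without control 1 and 0.26 without superovulated 2. All superovulated animals were above all controls for NDRG1 and PKM, and superovulated 2 was highest in both. The 54 cytosolic ribosomal protein genes, by comparison, had a median of -0.01, whose sign turned under quantile normalisation, and list means from 13.70 to 13.74 in the 6 animals.

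The plot of the gene lists by animal shows the list mean of each cow. Superovulated 2 was the highest of the 6 animals for macrophage, chemokine, stress, fibroblast, collagen, epithelial and glycolysis genes. Control 2 and stimulated 2 were also the highest of their groups for macrophage, chemokine, fibroblast, collagen and glycolysis genes. For stress and epithelial genes control 2 was the lowest control. KRT19, a keratin of surface epithelium, was 5.03 in superovulated 2, against 2.44 to 2.61 in the other 5 animals. The sign of the log2 fold change of KRT19 turned without superovulated 2. The epithelial list mean was 3.76 in superovulated 2 and 3.06 to 3.28 in the others, and 11 of its 14 measured genes were below the median signal of all probe sets. The part of this epithelial signal in the other lists was not tested. Of the endothelial markers VWF had 0.21 (SE 0.07) at signals from 1.99 to 2.33, in the dim range.

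**Figure D4:**
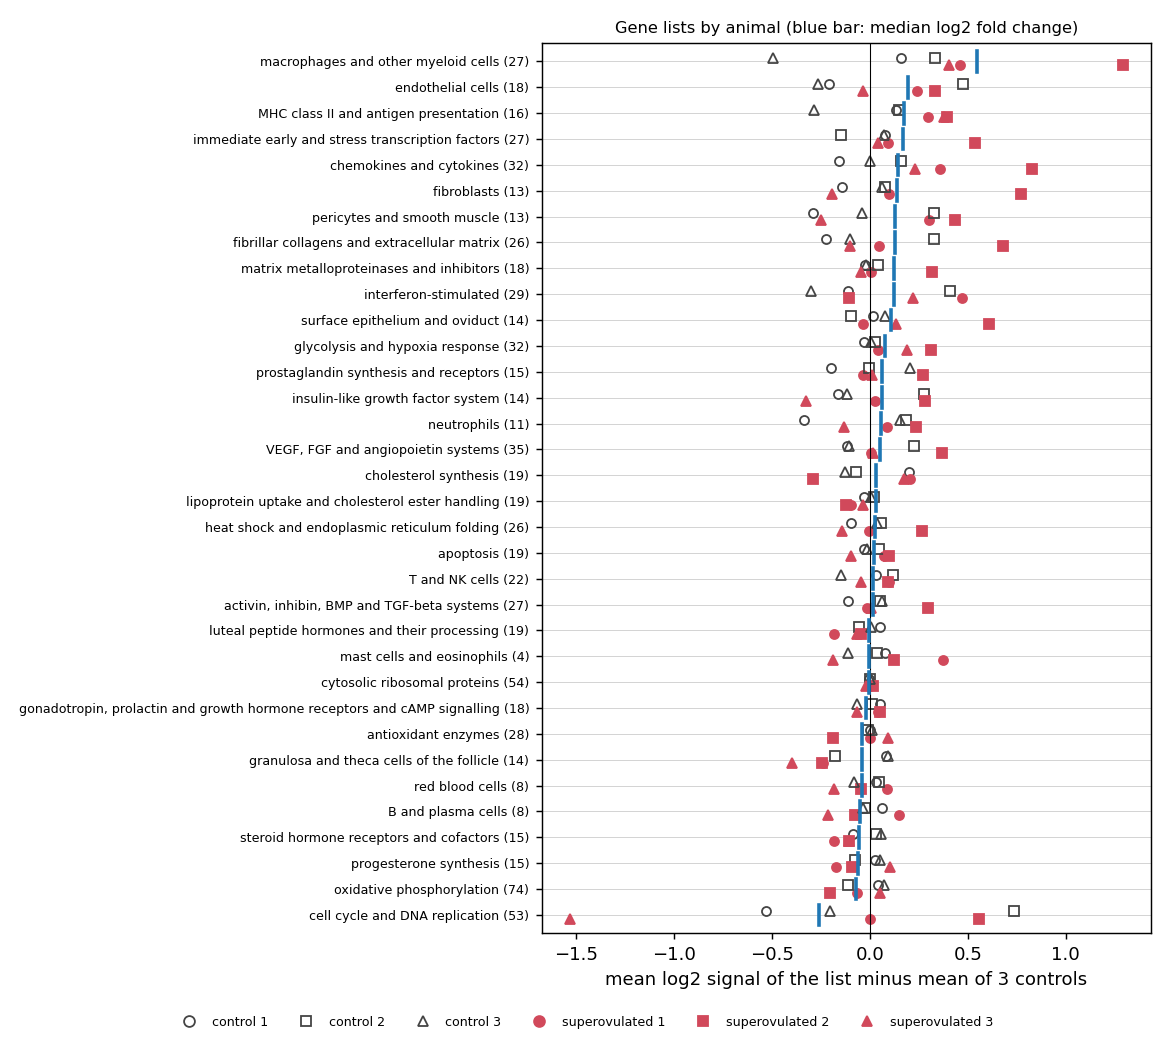
Mean log2 signal of each of 34 gene lists minus the mean of 3 controls (horizontal axis), 1 symbol per animal (open, control; filled, superovulated), with the number of measured genes in brackets. Blue bars mark the median log2 fold change of the members, which runs from -0.26 for cell cycle genes to 0.55 for macrophages and other myeloid cells, and superovulated 2 lies far to the right in several lists.

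The superovulated animals were also compared directly with the stimulated cows. This comparison shares the superovulated animals with the one above, and dose and day of eCG differ together in it. In limma 1 of 23983 probe sets passed (0.00417% called), that of PRSS2, with an adjusted p of 0.00101, and 2314 had an unadjusted p under 0.05. None of the genes described above passed. ATF3 was higher by 0.66 (SE 0.11) in superovulated than in stimulated animals, CCNC by 0.42 (SE 0.07), PDPN by 2.18 (SE 0.45), PKM by 1.10 (SE 0.22) and PFKL by 0.85 (SE 0.19). NSD3 was at -0.77 (SE 0.10), PTHLH at -0.40 (SE 0.08), FLT1 at -0.73 (SE 0.20), ABLIM1 at -1.58 (SE 0.38) and PEG10 at -1.35 (SE 0.39). Their limma adjusted p values lay between 0.134 for NSD3 and 0.410 for PEG10.

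Other genes, CERT1 apart, differed less between superovulated and stimulated animals in relation to their SE. LYZ2 differed between them by -0.17 (SE 0.36), AIF1 by -0.10 (SE 0.36), MPEG1 by -0.29 (SE 0.47) and MAN2B1 by -0.03 (SE 0.29), all within their errors. NCEH1 differed by -0.25 (SE 0.17) and MMP9 by 0.37 (SE 0.21). The superovulated animals lay between control and stimulated means for CERT1, with -0.33 (SE 0.08, limma adjusted p = 0.353) against stimulated animals, whose mean was 6.50.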

How the data were processed

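The deposited table gives 9 arrays and 24128 probe sets, of which 112 are array controls. Its unit is no standard one, since each deposited number is a run of digits without a decimal mark. The mark was restored to give values from 0.85 to 15.36, read here as log2 signals. The log base, summarisation and normalisation used by the authors are not stated in the sources used here. Of the values 15.5% could be read as 1.x or 1x.x. In 1578 probe sets the other arrays settled this, with the allowed distance of 5 set after values were seen, and in 3031 with all arrays open the spread between arrays did, at a probability of 0.95, with 0.86 wrong readings expected. In 34 it stayed undecided, 33 of them not controls. Array medians lay between 4.19 and 4.25, and no further normalisation was applied.

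Probe sets were fitted with limma (3.58.1, R 4.3.3, lmFit and eBayes, 2-sided, Benjamini-Hochberg over 23983 probe sets) on 9 arrays with 1 mean per group. P-values measure the spread between these animals. On simulated data for this comparison with 23983 probe sets, 100 were changed by 1 and 100 by 2 on the log2 scale, and 68% and 91% of these were called, with 14 unchanged ones. The changed probe sets were drawn at random from all tested ones, dim ones included, and the noise was independent between probe sets. The share called among genes of wide spread, such as LYZ2 (SE 0.36, against a median of 0.14), was not computed. Gene symbols are those of the given probe table (13292 probe sets with 1 symbol, 86 with several, 10638 with none). The RefSeq table of assembly NIAB-ARS_B.indTharparkar_mat_pri_1.0 held 8550 of the 9155 symbols. The probe set of highest mean stood for a gene.

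The genes described are taken, in each direction, from the 15 of smallest p and the 10 of largest fold change among brighter genes with groups apart and an unadjusted p under 0.05, up to 4 of smallest p in each of 34 lists, and 15 fixed genes. Lists are described by counts and medians. The members, lists and rule were chosen with earlier results of these data known, and the comparison with stimulated cows was added after the values were seen. Alternatives were the 6 arrays alone, the replicate number as a block, quantile normalisation, leaving out dim or open probe sets, an intensity trend, the mean of all probe sets and leaving out each array.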

Additional observations from a re-analysis of the deposited data

How the results depend on the processing

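The count of passing probe sets was 0 with higher signal in every alternative run. With lower signal it was 1 with the 6 arrays alone and ran from 0 to 1 when 1 array was left out, with 1 without stimulated 3, and was 0 in the other alternatives. At an unadjusted p under 0.05 the counts were 580 to 638 higher and 855 to 858 lower with 6 arrays, quantile normalisation or an intensity trend, 529 and 746 where probe sets with an open digit run were left out, and 254 and 417 without the dimmer probe sets, where fewer were tested. They ran from 469 to 759 higher and 659 to 953 lower when 1 array was left out. With the replicate number as a block they were 962 higher and 1025 lower, and 0 passed. Deviations of same-numbered animals from their group means correlated at 0.08, 0.35 and 0.15. Those of differently numbered control and superovulated animals ran from -0.35 to 0.26, with the highest between control 1 and superovulated 3. The labels do not pair the samples, so the main fit had no replicate term. Whether same-numbered animals share a factor was not tested. Among the genes described, signs turned when 1 array was left out for INHBA (-0.22 without superovulated 2, -0.11 without control 3, up to 0.30 without superovulated 3), KDR (-0.035 without control 1, -0.0064 without superovulated 1, up to 0.056), KRT19 (-0.042 without superovulated 2, up to 1.26 without superovulated 3), OXT (-0.19 without superovulated 3, up to 0.10 without superovulated 1), PGR (-0.0003 without superovulated 3, up to 0.053) and SCARB1 (-0.096 without superovulated 1, 0.014 without control 3, up to 0.026 without superovulated 2). Signals near background limit what the dim genes can show.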

Other observations

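Of the 6 probe sets with the smallest p, 4 carry no gene symbol here. Of the named ones, chosen after their values were seen, a probe set of RPUSD3, a mitochondrial pseudouridine synthase, had 4.09, 4.24 and 4.47 in control and 3.30, 3.48 and 3.45 in superovulated animals, with a log2 fold change of -0.86 (SE 0.11, limma adjusted p = 0.487). A probe set of SHC1, an adaptor of growth factor receptors, had 6.81, 6.76 and 6.67 against 7.58, 7.37 and 7.28, with 0.66 (SE 0.09), and a probe set of PISD, which makes phosphatidylethanolamine in mitochondria, had 0.45 (SE 0.08).

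The 1 probe set that passed under any alternative carries no symbol here. It had 7.44, 8.25 and 7.75 in control animals and 3.32, 3.34 and 2.95 in superovulated animals. In stimulated animals it had 8.66, 8.80 and 3.02, so that stimulated 3 lay with the superovulated cows. Its log2 fold change was -4.61 (SE 1.38, limma adjusted p = 0.761). Its limma adjusted p was 0.0423 with the 6 superovulated and control arrays alone and 0.00449 without stimulated 3, and over the other alternatives it ran from 0.528 to 0.989.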
